A study of Mus musculus with 6 samples.

Results

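The transcripts of 9 genes of the IL-4 response and of alternative macrophage activation were followed through 6 libraries of RAW264.7 cells. The genes were Egr2, Clec10a, Mrc1, Irf4, Ccl22, Ccl17, Il4ra, Klf4 and Pparg. They were chosen by name as known genes of this program, with earlier results of these data known. All 9 were found among the 24062 genes of the count tables. RAW264.7 is a mouse macrophage line of virally transformed origin, and the sample labels give bone marrow as the tissue while also naming this line.

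RNA was sequenced from M0, M1 and M2 macrophages and from their irradiated counterparts RM0, RM1 and RM2. M0 cells received no polarizing agent. M1 cells were given LPS at 100 ng/mL with IFN-γ at 20 ng/mL, and M2 cells were given IL-4 at 20 ng/mL, in each case for 24 h. RM0, RM1 and RM2 cells then received 10 Gy of gamma radiation and were kept in culture for 24 h more. The sources used here do not state whether the non-irradiated cells were held for the same added time, or whether IL-4 stayed in the medium after irradiation, so radiation and time in culture cannot be told apart. RNA from several wells was pooled for each library and there was 1 library per condition, so no difference between 2 libraries had a replicate check. Total counts were 18246280 (M0), 18472101 (M1), 17894937 (M2), 18660435 (RM0), 18870516 (RM1) and 18154365 (RM2).

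IL-4 binds a receptor whose α chain is encoded by Il4ra, and the receptor's Janus kinases phosphorylate the transcription factor STAT6. STAT6 then acts with factors such as IRF4, KLF4, EGR2 and PPARγ on genes of alternative activation, which include the lectin receptors Clec10a and Mrc1 (the mannose receptor, CD206), and the chemokines Ccl17 and Ccl22. LPS with IFN-γ drives the opposing, classical state, marked by Nos2.

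After IL-4, Egr2 and Clec10a were higher whether or not the cells had been irradiated. The differences of Egr2 and Clec10a in the irradiated pair were within counting error of those in the non-irradiated pair. Ccl22, Irf4, Klf4, Il4ra and Mrc1 were not called after IL-4 in either pair, though Mrc1, with 12 reads in RM2 against 5 in RM0, lay at the threshold, and Ccl17 and Pparg had 2 reads or fewer in every library. Here a gene was called higher or lower when it differed at least 2-fold between 2 libraries, after scaling by the TMM method, and when 1 of them held 10 counts or more. By this rule 2 of the 9 genes were called higher in M2 against M0, where 0.995% of the tested genes were. The background depends on the count minimum, as the genes called in either direction in M2 against M0 went from 169 to 82 with a minimum of 20 counts and to 427 with none, while the 9 genes gave 2 calls each time. The same 2 were called higher in RM2 against RM0, where 1.66% of tested genes were, and 0 of the 9 were called lower in either comparison, where 0.442% and 0.953% of tested genes were. Of 11598 genes 0.31% were called higher in both comparisons and 0.103% lower in both. Egr2 was just past the threshold, at 2.03-fold in M2 against M0 and 2.1-fold in RM2 against RM0. The counting intervals of Egr2 and of Clec10a reached below 2-fold in both pairs. Neither of these genes passed the test over all 6 libraries given below. Over the 7 genes with enough counts the median difference on the log2 scale was -0.031 in M2 against M0 and 0.52 in RM2 against RM0, beside medians of -0.0040 and -0.0027 over all tested genes. Both medians were the value of Irf4, with 39 reads in M0 and M2, and 56 in RM2 against 38 in RM0. Its counting intervals contained 0 in both pairs, so the medians show no shift of the genes as a set. M2 against M0 and RM2 against RM0 have no library in common, while RM2 against M2 shares a library with each.

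**Figure D1:**
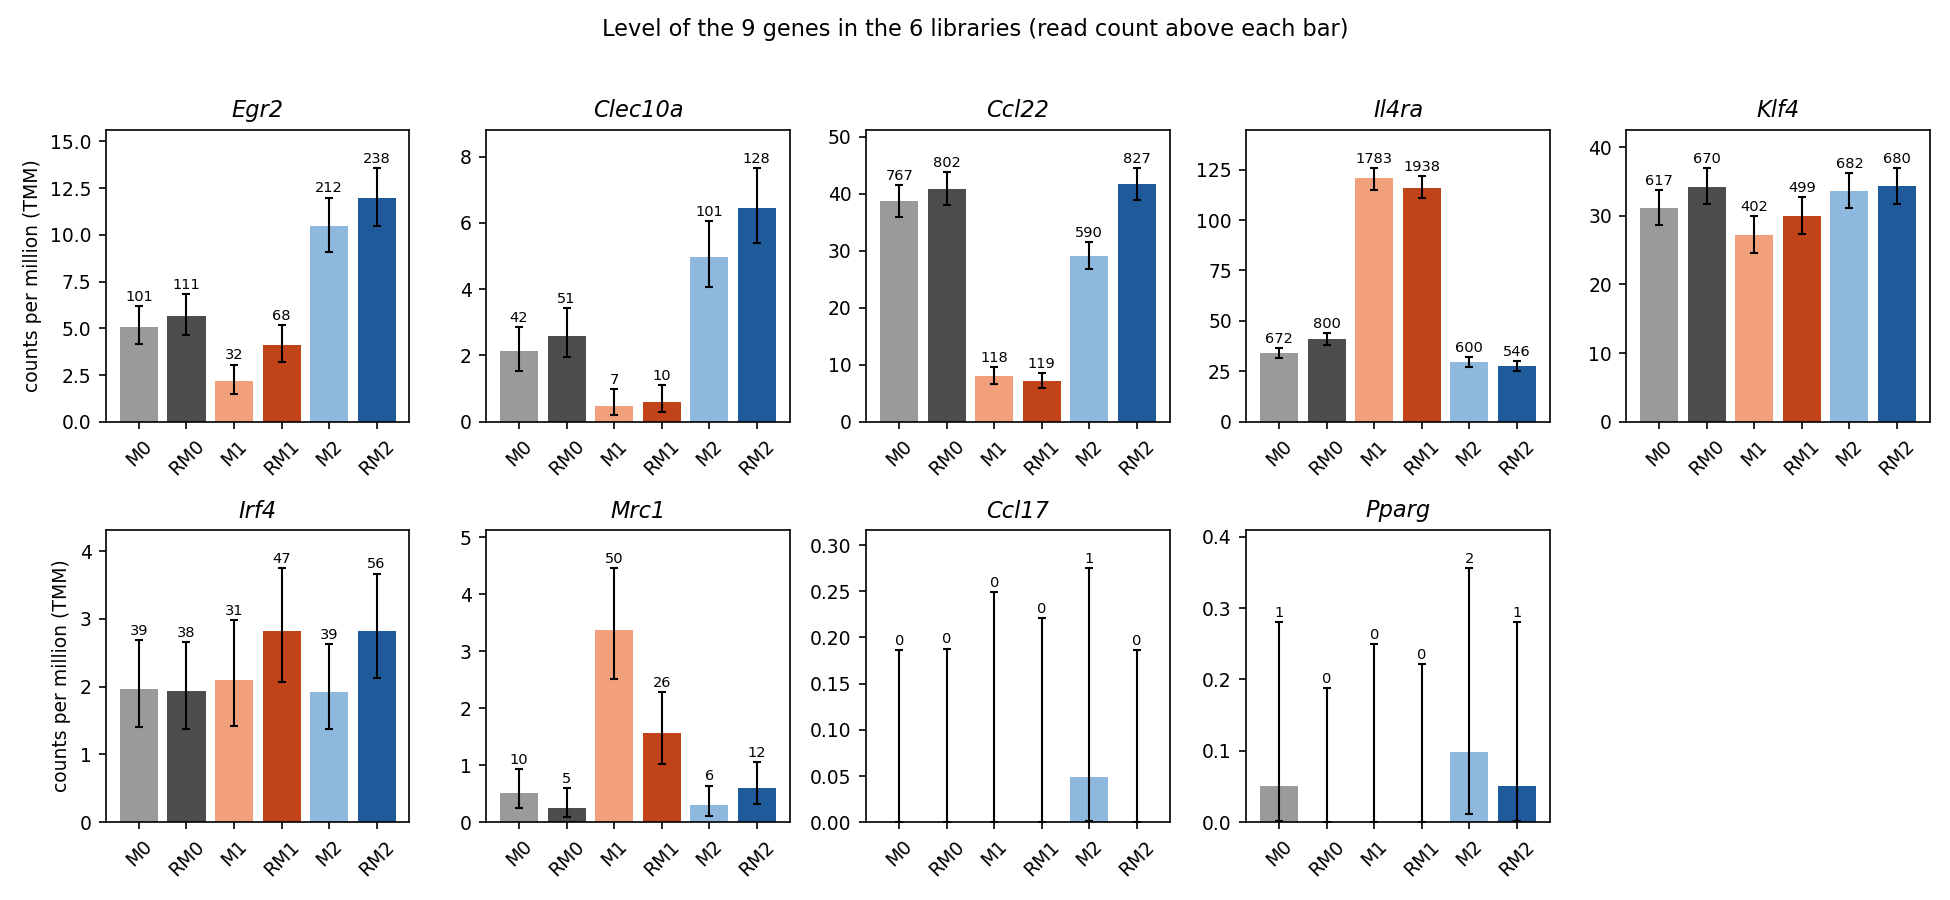
Level of each of the 9 genes in the 6 libraries, in CPM (counts scaled to a common library size) after TMM scaling (vertical axis, from 0, with its own scale for each gene). Bars are single libraries, whiskers are exact 95% counting intervals, and the number above each bar is the read count. Egr2 and Clec10a stand highest in M2 and RM2, Il4ra and Mrc1 in M1 and RM1, and Ccl22 is lowest in M1 and RM1.

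Because STAT6 binds palindromes of TTC and GAA, the 250 bases before each RefSeq transcript start were searched for TTCNNNNGAA and TTCNNNGAA, each of which reads the same on both strands. Windows were given by RefSeq for 8 of the 9 genes, and Clec10a had none in the table. Ccl17 held both motifs, and the windows of the other 7 genes held neither. The 8 genes had 14 windows between them. Over all 32851 windows, 5.85% held the first and 7.02% the second. Counted by gene, 6.76% of 27025 genes held the first and 8.13% the second. The Ccl17 window is printed because it was the sole match, with the matched letters in capitals (TTCNNNNGAA from -154 to -145 and TTCNNNGAA from -99 to -91, counted from the start), and the window of the most upstream Egr2 start, cut where the annotated gene begins, because Egr2 differed after IL-4. They lie at chr8:94810203-94810452 and chr10:67535249-67535474 of GRCm38.p6, both on the plus strand. The listed span of Egr2 starts downstream of its printed window, at chr10:67537869. The window directly before that start held neither motif.
Ccl17: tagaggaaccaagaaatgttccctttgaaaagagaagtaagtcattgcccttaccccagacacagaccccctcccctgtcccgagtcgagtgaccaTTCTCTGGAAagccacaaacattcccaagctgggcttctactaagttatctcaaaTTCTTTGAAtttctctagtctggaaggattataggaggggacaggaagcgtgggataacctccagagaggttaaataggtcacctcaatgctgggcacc
Egr2: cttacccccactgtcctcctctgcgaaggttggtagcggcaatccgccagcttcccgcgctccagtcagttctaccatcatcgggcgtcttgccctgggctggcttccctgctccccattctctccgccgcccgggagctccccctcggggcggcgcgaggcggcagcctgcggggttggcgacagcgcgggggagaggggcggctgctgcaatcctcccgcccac
The gene holding both motifs was thus one with almost no reads. A match of letters is a description and not a binding site, and a window without a match says nothing of STAT6 elsewhere at the gene.

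Clec10a encodes a C-type lectin of the macrophage surface that binds galactose-type sugars. It gave 42 reads in M0 and 51 in RM0, 101 in M2 and 128 in RM2, and 7 in M1 and 10 in RM1. M2 and RM2 were the highest and their counting intervals overlapped each other but not those of M0 and RM0. The log2 fold change was 1.19 (95% counting interval 0.70 to 1.79) in M2 against M0 and 1.27 (0.83 to 1.81) in RM2 against RM0. These differed by 0.082, with an interval of -0.67 to 0.82, so a difference of either sign within that range could not be told from counting error. Reads of Clec10a can be shared with its neighbor Mgl2, since 6.51% of its 100-base windows occur there, and Mgl2 itself had at most 3 reads in any library. The table lists only 28.8% of the annotated span of Clec10a.

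Mrc1, whose product CD206 is widely used to mark M2 macrophages, followed another pattern. It gave 10 reads in M0 and 5 in RM0, 6 in M2 and 12 in RM2, and 50 in M1 and 26 in RM1. The 2 libraries treated with LPS and IFN-γ were the highest, and the other 4 had overlapping counting intervals. The log2 fold change after IL-4 was -0.60 (-2.51 to 0.83) without and 0.97 (-0.36 to 3.10) with irradiation, and both intervals contained 0. The value in the irradiated pair was just short of 2-fold with a prior count of 2, and passed it with a prior count of 0.25 (1.20) or with scaling by library totals (1.03). The difference between the pairs was 1.57 with an interval of -0.37 to 4.48, and no change of Mrc1 with IL-4 was detectable at this depth. The table lists 69.0% of the annotated span of Mrc1.

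Among the chemokines, Ccl22, which attracts T cells that carry CCR4, was already abundant without IL-4. It gave 767 reads in M0 and 802 in RM0, 590 in M2 and 827 in RM2, and 118 in M1 and 119 in RM1. M0, RM0 and RM2 had overlapping intervals, M2 was lower than these, and M1 and RM1 were the lowest. The log2 fold change was -0.41 (-0.57 to -0.25) in M2 against M0 and 0.026 (-0.12 to 0.17) in RM2 against RM0. The IL-4 differences of the pairs differed by 0.44, with a counting interval of 0.22 to 0.65, and RM2 exceeded M2 by 0.52 (0.37 to 0.67). These intervals hold counting error alone, and variation between cultures was not measured. Ccl17, the second CCR4 ligand and a neighbor of Ccl22 on chromosome 8, showed a single read, in M2, and 0 elsewhere, where the floor of 3 counts allows up to 0.203 CPM and the exact 95% interval reaches 0.249 CPM.

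Egr2 encodes a zinc finger factor of the early growth response family that takes part in late alternative activation. It gave 101 reads in M0 and 111 in RM0, 212 in M2 and 238 in RM2, and 32 in M1 and 68 in RM1. M2 and RM2 were the highest with overlapping intervals, M0 and RM0 lay below them, and M1 was the lowest. The log2 fold change was 1.02 (0.69 to 1.39) in M2 against M0 and 1.07 (0.75 to 1.42) in RM2 against RM0. These differed by 0.046, with an interval of -0.45 to 0.54. By the mean of its 2 log2 fold changes Egr2 stood at place 63 of 11598 genes and Clec10a at place 43. The listed span holds 64.3% of the annotated gene.

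The other transcription factors did not follow Egr2. Irf4, a factor needed for much of the IL-4 program in mouse macrophages, gave 39 reads in M0 and 38 in RM0, 39 in M2 and 56 in RM2, and 31 in M1 and 47 in RM1. All 6 counting intervals overlapped, and the highest level was 1.47 times the lowest. The log2 fold change of Irf4 after IL-4 was -0.031 without and 0.52 (-0.078 to 1.18) with irradiation. Klf4, a Krüppel-like factor that cooperates with STAT6, gave 617 reads in M0 and 670 in RM0, 682 in M2 and 680 in RM2, and 402 in M1 and 499 in RM1. It was the steadiest of the 7 measured genes, with its highest level 1.26 times its lowest, and its log2 fold change after IL-4 was 0.11 in the first pair and 0.0030 in the second. Pparg, the nuclear receptor of lipid metabolism, had 1 read in M0, 2 in M2, 1 in RM2 and 0 in the others, so it gave no measurement of a change. An antisense gene overlaps exons of Pparg and another overlaps exons of Il4ra, and as the sources used here do not state whether reads were counted by strand, reads of the partners cannot be told apart.

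Il4ra, which encodes the α chain of the IL-4 receptor, was lower after IL-4 by less than 2-fold. It gave 672 reads in M0 and 800 in RM0, 600 in M2 and 546 in RM2, and 1783 in M1 and 1938 in RM1. M1 and RM1 stood far above the rest. The log2 fold change was -0.20 (-0.36 to -0.035) in M2 against M0 and -0.57 (-0.73 to -0.41) in RM2 against RM0, and the difference between the pairs was -0.37 (-0.60 to -0.15). RM0 exceeded M0 by 0.27 (0.12 to 0.42).

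**Figure D2:**
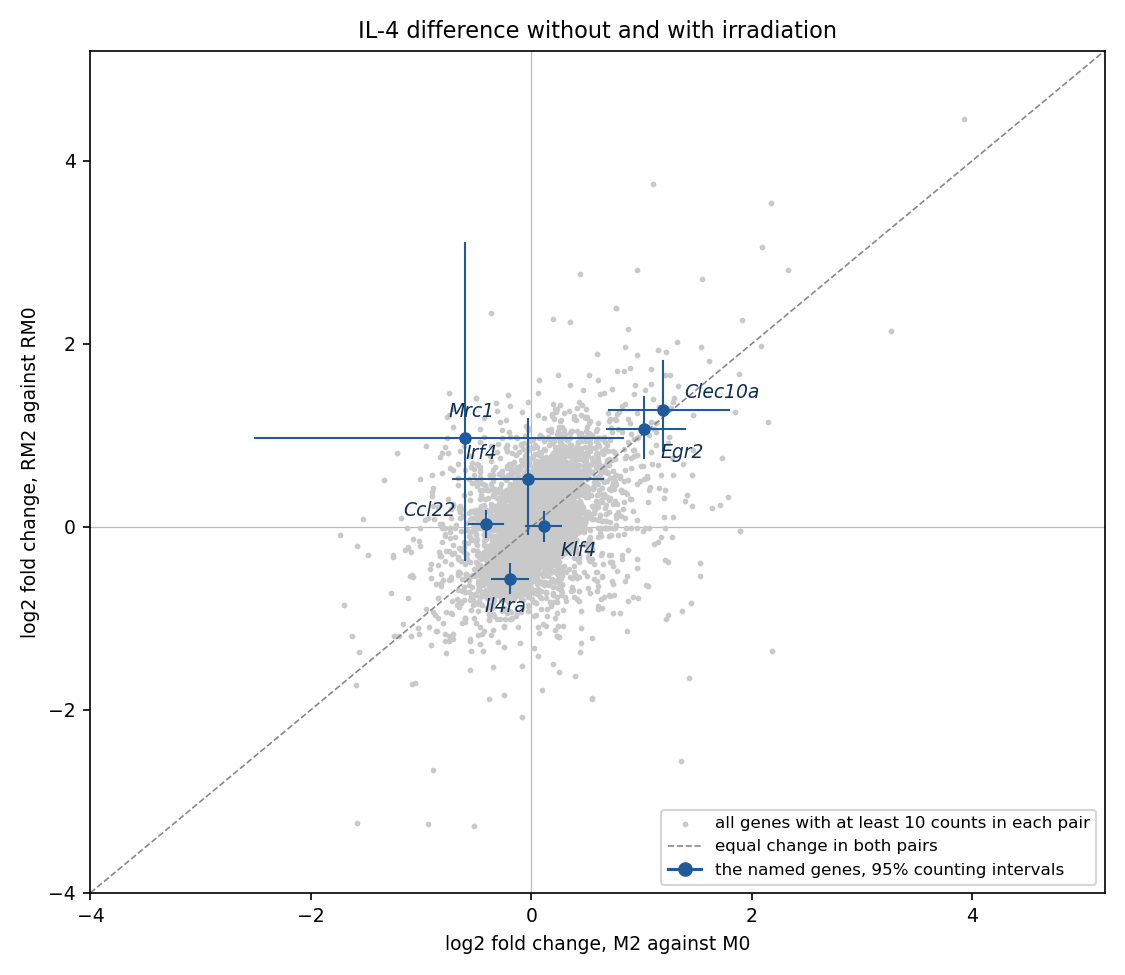
Log2 fold change in M2 against M0 (horizontal axis) and in RM2 against RM0 (vertical axis) for 11598 genes (grey) and for the 7 named genes with enough counts (blue, with 95% counting intervals). Egr2 and Clec10a lie close to the dashed line of equal change, and Ccl22 and Il4ra have intervals clear of it.

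Of the other genes of IL-4 signaling, Il13ra2 was called higher in both pairs and Cish in the irradiated pair, with the other pair at the threshold, while the kinases and Stat6 were not called. Of 16 listed genes, 13 had enough counts. In M2 against M0 1 of them was called higher and 0 lower, where 0.995% of tested genes were called higher and 0.442% lower. In RM2 against RM0 2 were called higher and 0 lower, where 1.66% of tested genes were called higher and 0.953% lower. The medians of the listed genes were 0.097 and 0.069. Il13ra2, whose product binds IL-13 and is known mostly as a decoy, gave 54 reads in M0 and 41 in RM0, 257 in M2 and 505 in RM2, and 83 in M1 and 71 in RM1. Its log2 fold change was 2.17 (1.79 to 2.67) without and 3.54 (3.14 to 4.10) with irradiation, and RM2 exceeded M2 by 1.00 (0.79 to 1.23). Cish, a feedback inhibitor of cytokine receptors induced by STAT factors, gave 97 reads in M0 and 94 in RM0, 195 in M2 and 356 in RM2, and 218 in M1 and 267 in RM1. Its log2 fold change was 0.96 (0.62 to 1.34) in M2 against M0 and 1.88 (1.57 to 2.25) in RM2 against RM0. The first was just short of 2-fold and passed it with scaling by totals (1.02), and the difference between the pairs was not tested for Cish. Stat6 itself had 3630 reads in M0, 3559 in M2, 3987 in RM0 and 3556 in RM2, and differed by -0.061 and -0.18 on the log2 scale. The genes of IL-4 and IL-13 had 0 reads in M0, M2, RM0 and RM2.

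Of 29 other alternative activation genes in the tables, 17 had enough counts in M2 against M0, where 2 were called higher and 0 lower. In RM2 against RM0 16 had enough counts, 3 were called higher and 0 lower, and the medians were 0.14 and 0.22. Of all tested genes 0.995% were called higher and 0.442% lower in the first comparison, and 1.66% and 0.953% in the second. Slc7a2, a transporter of cationic amino acids, gave 11 reads in M0 and 21 in RM0, 55 in M2 and 192 in RM2, and 165 in M1 and 187 in RM1. It was high after either kind of stimulation, with log2 fold changes of 2.09 (1.34 to 3.37) in M2 against M0 and 3.05 (2.52 to 3.90) in RM2 against RM0, and RM2 exceeded M2 by 1.80 (1.40 to 2.30). Mmp12, the macrophage elastase, gave 8 reads in M0 and 5 in RM0, 22 in M2 and 25 in RM2, and 24 in M1 and 38 in RM1. Its log2 fold changes after IL-4 were 1.22 (0.21 to 2.80) and 1.91 (0.89 to 4.05). Cd36, a scavenger receptor for lipids, gave 6717 reads in M0 and 8825 in RM0, 11165 in M2 and 19929 in RM2, and 12800 in M1 and 17348 in RM1. Its log2 fold change was 0.70 without and 1.16 with irradiation. Retnla and Chil3, among the best known IL-4 genes of mouse macrophages, had 0 reads in all 6 libraries. In RM2 against M2, 1 of 17 of these genes, Slc7a2, was called higher and 0 lower, where 1.03% of tested genes were called higher and 0.932% lower. Of 13 signaling genes 1, Il13ra2, lay at the threshold there, called at 1.00 and not called with scaling by totals (0.95) or DESeq2 size factors (0.997). The 12 relatives and partners of the transcription factors, such as Egr1, Klf2 and Rxra, gave 0 calls in either IL-4 comparison, with medians of -0.12 and -0.26.

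**Figure D3:**
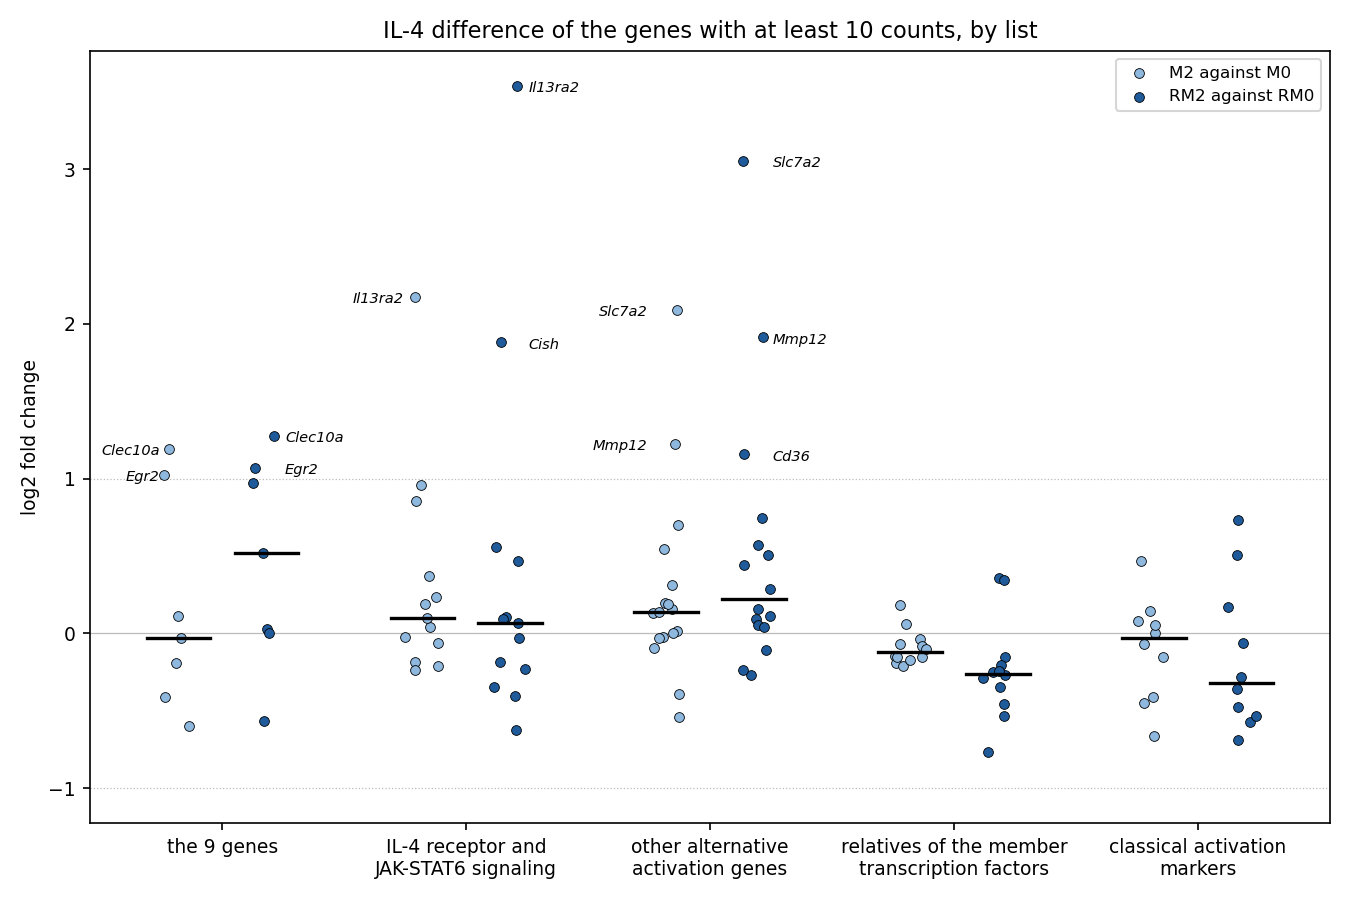
Log2 fold change (vertical axis) in M2 against M0 (light) and RM2 against RM0 (dark) for the genes of 5 lists with at least 10 counts. Each point is a gene, the bar is the list's median, the dotted line at 1 is a 2-fold difference, and the genes past 2-fold are named.

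The calls above compare 2 libraries each. To use all 6, an effect of IL-4 shared by the irradiated and non-irradiated cells was fitted with edgeR's quasi-likelihood test, with polarization and irradiation as terms. In this test the irradiated and non-irradiated libraries stood in for replicates, which assumes the same effect in each. Over 11574 genes 0.156% rose and 0.0346% fell, and 1173 genes had an unadjusted p under 0.05. The fit held 7 of the 9 genes, since Ccl17 and Pparg had too few reads, and 0 of the 7 passed an adjusted p of 0.05 by edgeR's quasi-likelihood test with Benjamini-Hochberg adjustment. DESeq2 also gave 0. Of the 7, 3 had an unadjusted p under 0.05, namely Clec10a, Egr2 and Il4ra. Clec10a had a log2 fold change of 1.27 with an approximate SE of 0.247 and an edgeR adjusted p of 0.0884, and Egr2 of 1.06 with an SE of 0.218 and an adjusted p of 0.105. Il4ra had -0.39 with an edgeR adjusted p of 0.459. Of the other lists Il13ra2 rose by 2.94 (edgeR adjusted p = 0.00792), Slc7a2 by 2.84 (0.0372) and Cish by 1.47 (0.0372). The test assumes the same effect in both pairs, but for Il13ra2 and Cish the counting intervals of the 2 pairs did not overlap. For Slc7a2 they overlapped. These 3 calls were lost with scaling by totals, at edgeR adjusted p of 0.0589, 0.102 and 0.114, and without the irradiation term, at 0.136, 0.591 and 0.477, while the log2 fold changes stayed between 2.98 and 2.99, 2.88 and 2.92, and 1.51 and 1.52. The 3 genes also passed with DESeq2 (adjusted p of 3.34e-12, 3.94e-06 and 0.000403), with no filter on low counts and without M1 and RM1. Without the filter on low counts 0.207% of genes rose and 0.0754% fell, and the edgeR adjusted p was 0.0508 for Clec10a and 0.0551 for Egr2. Without M1 and RM1, which left 1 residual degree of freedom, Egr2 (adjusted p = 1.22e-08), Clec10a (6.35e-07) and Il4ra (0.0142, lower) passed in edgeR, but so did many other genes, with 6.87% of 11457 rising and 4.67% falling.

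In RM2 against M2, 0 of the 7 genes with enough counts were called, where 1.03% of tested genes were called higher and 0.932% lower. Their median log2 fold change was 0.37, beside -0.0025 over all tested genes, with Egr2 at 0.20, Clec10a at 0.37 and Il4ra at -0.10. That median was the value of Clec10a, whose counting interval contained 0.

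Irradiation without polarization gave no 2-fold call among the 9 genes, and Ccl17 and Pparg had too few reads to be measured there. In RM0 against M0, 0 of the 7 genes with enough counts were called, where 0.719% of tested genes were called higher and 0.821% lower. Their median log2 fold change was 0.14, beside -0.00084 over all tested genes. That median was the value of Klf4, whose counting interval contained 0. A radiation effect shared by the 3 states passed the edgeR quasi-likelihood test in 0 of 7 genes, while 0.346% of 11574 genes rose and 0.13% fell, and 1707 had an unadjusted p under 0.05. In RM1 against M1, where 3.08% of tested genes were called higher and 2.25% lower, Mrc1 was the only one of the 9 genes called. It was lower in RM1, with a log2 fold change of -1.06 and a counting interval of -1.86 to -0.41, and Egr2 was higher by 0.88 (0.29 to 1.57), short of 2-fold. With scaling by library totals the call passed from Mrc1, at -0.92, to Egr2, at 1.01.

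LPS with IFN-γ gave calls for 5 of the 9 genes. In M1 against M0 Mrc1 and Il4ra were called higher and Egr2, Clec10a and Ccl22 lower, against a background of 9.37% higher and 13.3% lower. The log2 fold changes were 2.51 for Mrc1, 1.83 for Il4ra, -1.19 for Egr2, -1.94 for Clec10a and -2.26 for Ccl22. In RM1 against RM0, where 6.16% of tested genes were called higher and 7.87% lower, the same genes were called apart from Egr2. There Mrc1 had 26 reads against 5, and Il4ra was at 1.51, Clec10a at -1.94 and Ccl22 at -2.50, while Egr2 was at -0.46. In the fit over 6 libraries 23.3% of genes rose and 24.3% fell with LPS and IFN-γ. Among the 7 genes in it Il4ra (adjusted p = 7.99e-06) and Mrc1 (0.00165) rose and Ccl22 (3.82e-06), Clec10a (0.000751) and Egr2 (0.0223) fell by edgeR's quasi-likelihood test. The Egr2 call was lost with DESeq2, at an adjusted p of 0.0509, and without the irradiation term in edgeR, at 0.0668, with log2 fold changes of -0.80 and -0.77 beside -0.80 in the fit reported. Of the 12 classical activation genes 10 were called higher in M1 against M0, and of the 11 with enough counts 8 in RM1 against RM0, with 0 lower in either (9 and 7 higher with scaling by totals). The log2 fold changes of Tnf, 0.28 and -0.11, and of Il1b, 0.52 and 0.91, were short of a call in both pairs, as was that of Irg1, 0.75, in the irradiated pair. Of those with the largest change in M1, Saa3, an acute phase protein, went from 136 reads in M0 to 6345 in M1, Nos2, the inducible nitric oxide synthase, from 14393 to 169925, and the chemokines Cxcl10 from 117 to 1278 and Cxcl9 from 0 to 54. Under IL-4 0 of the 10 classical genes with enough counts were called in either pair. Of all tested genes 0.995% were called higher and 0.442% lower there without irradiation, and 1.66% and 0.953% with it. M2 against M0 and M1 against M0 share the M0 library, and the irradiated pairs share RM0.

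**Figure D4:**
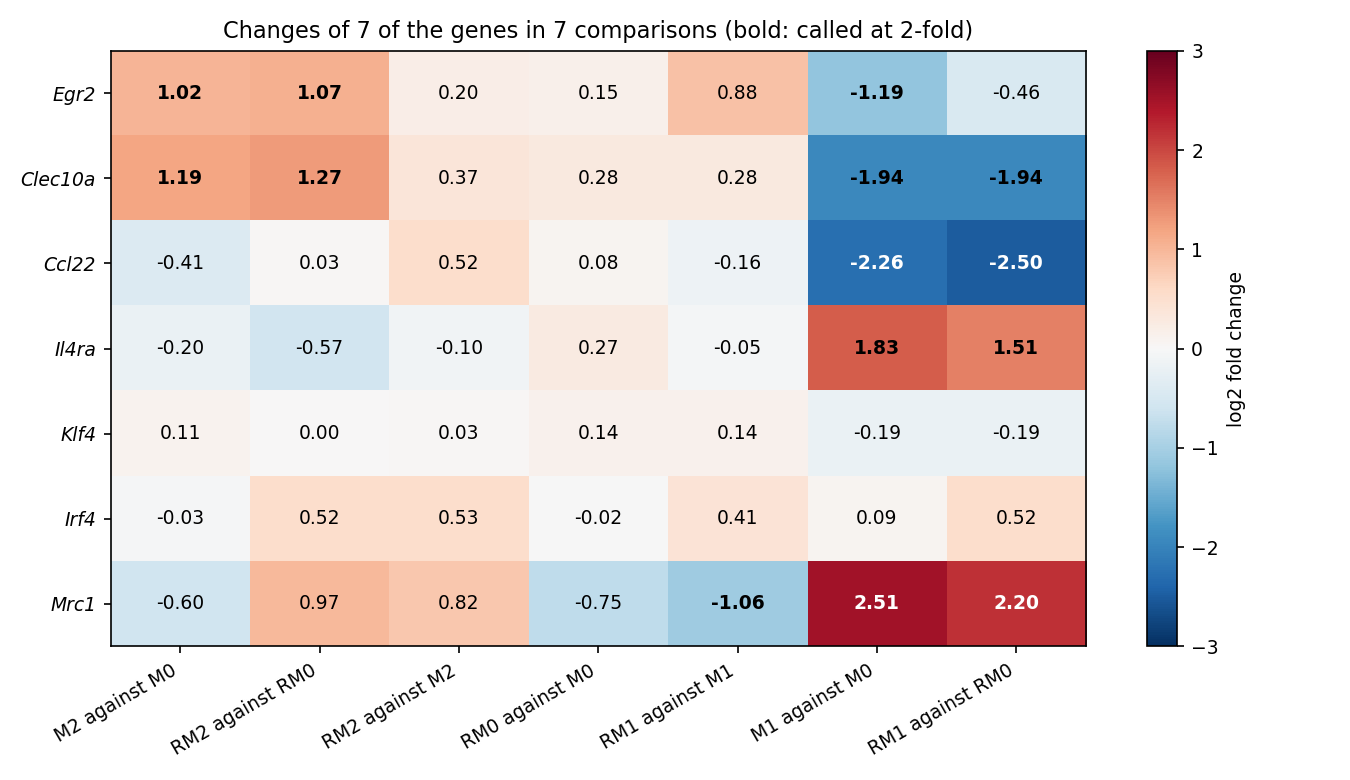
Log2 fold changes of 7 of the genes (rows) in 7 comparisons of 2 libraries (columns), from blue for lower to red for higher, with the value in each cell. Bold values passed the 2-fold call. The first 2 genes are positive in both IL-4 columns, and 5 genes pass in M1 against M0.

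Among genes with a mean of at least 50 reads, those with the highest mean change over both IL-4 comparisons were Il13ra2, Slc7a2, Arl4c, Hbegf and Rnf19b. Arl4c, a small GTPase, had 16 reads in M0, 91 in M2, 23 in RM0 and 176 in RM2. Hbegf, a growth factor that binds the EGF receptor, had 62, 189, 56 and 382 in the same order. Rnf19b, a ubiquitin ligase, was the most abundant of them, with 3710, 14303, 4648 and 22444. For each of these 5 genes the log2 fold change was larger in RM2 against RM0, as with Rnf19b at 2.25 beside 1.91. Of the 23 genes of that abundance called higher in M2 against M0, 16 were also called in RM2 against RM0, and 15 had a larger difference there. The median of the 23 was 1.28 in the pair that chose them and 1.36 in the irradiated pair. In the other direction, of 53 genes of that abundance called higher in RM2 against RM0, 16 were also called in M2 against M0, 1 had a larger difference there, and the median went from 1.28 to 0.73. Of 8 such genes called lower in M2 against M0, 4 were called again in RM2 against RM0, with medians of -1.56 and -0.96. Over genes of any abundance 36 were called higher in both pairs, which was 30.8% of the 117 of the first pair and 18.5% of the 195 of the second. At the low end stood Slamf7, a receptor of leukocytes, with 66 reads in M0, 21 in M2, 90 in RM0 and 26 in RM2, and Selenbp1 and Crispld2. Rps2 was lower still, with 1503 reads in M0, 511 in M2, 1515 in RM0 and 161 in RM2. Ribosomal genes can have near-identical copies, so its counts may be uncertain, and sharing of its reads was not tested.

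The genes whose log2 levels most resembled Clec10a over the 6 libraries, out of 10185 compared by Pearson's r, were Ate1 (0.994), Rp2h (0.994), Pigh (0.994), Usp31 (0.991) and Srek1ip1 (0.990). Each was lowest in M1 and RM1 and highest in M2 and RM2, with smaller differences than Clec10a. Usp31, a deubiquitinating enzyme, had 632 reads in M0, 849 in M2, 642 in RM0 and 864 in RM2, with 302 in M1 and 402 in RM1. With 6 libraries such a correlation is a description and no more.

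The cells were checked against markers of other types. Macrophage markers summed to between 21900 and 37100 CPM, with 9 of the 10 genes detected, Lyz2 the most abundant and Cd163 at 0. All 5 epithelial markers were at 0, and mast cell and basophil markers, which matter because those cells make IL-4, had at most 1 read. Of the 6 T cell markers 5 had 3 reads or fewer, Cd3e, Cd3g and Cd8a were at 0, and Lck had 178 to 243 reads. B cell markers summed to at most 0.252 CPM and dendritic cell markers to at most 1.77, with Zbtb46 the most abundant. Fibroblast markers came to 42.7 CPM in M1 and 43.8 in RM1, and to 6.05 in M0, 8.11 in RM0, 5.92 in M2 and 9.32 in RM2, mainly through Dcn, with Col1a2, Col3a1 and Thy1 at 0. Dcn was called higher with LPS and IFN-γ in both pairs, as were Mrc1 and Il4ra, while Col1a1 went from 6 reads in M0 to 1 in M1 and from 11 in RM0 to 0 in RM1. The part of such cells in those results was not tested. In bulk RNA a smaller share of responding cells and less RNA per cell cannot be told apart.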

How the data were processed

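RNA-seq reads were trimmed with Trimmomatic 0.36, aligned with HISAT2 2.2.1 to mm10 and counted with HTSeq 0.11.3, as the submitters' processing notes name these tools. The authors deposited raw counts per gene, 1 table per library, with no normalization. Of 24062 genes 8137 were at 0 in all 6 libraries, and 27 symbols had been turned into dates. List genes were also matched by older symbols.

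Libraries were scaled by TMM (edgeR 4.0.16, R 4.3.3) over genes that reached 10 counts in 3 libraries or more, with factors of 1.087 (M0), 0.8004 (M1), 1.134 (M2), 1.05 (RM0), 0.8836 (RM1) and 1.093 (RM2). A prior count of 2 was added for log2 fold changes. Intervals at 95% were computed by the exact Clopper-Pearson method from the reads of 2 libraries and, like the floor of 3 counts, hold counting error alone. The SE of a shared effect is its log2 fold change divided by the root of the F statistic, and the fit had 2 residual degrees of freedom. Tested on simulated data, with 200 genes shifted by 1 on the log2 scale at a coefficient of variation of 0.1, the shared IL-4 test recovered 93.5% with 9 false calls among 11486 genes. The simulated libraries held no LPS and IFN-γ effect, no effect that differed with irradiation, and the same coefficient of variation for every gene. In the real libraries 23.3% of genes rose and 24.3% fell with LPS and IFN-γ, so the share recovered does not give the test's power there.

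The 9 genes, the gene lists and the tests were chosen with earlier results of these data known. The genes named besides the 9 were those of the pathway and activation lists called in either IL-4 comparison, up to 4 classical genes with the largest change in M1 against M0, the 5 highest mean IL-4 changes, and up to 5 lowest (4 qualified), among genes called the same way in both pairs with a mean of at least 50 counts, and the 5 most like Clec10a, which had the highest mean IL-4 change of the 9 genes. A further gene of the set is not reported here. Genes named as undetected, not called or as other examples of a list were chosen after their values were seen. Alternatives were DESeq2 (1.42.0), scaling by totals, other count minimums, a 4-fold threshold, a prior count of 0.25, dropped terms and left-out states. The recount of the classical list and of the IL-4 lists under other scalings was added after the data were seen.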

Additional observations from a re-analysis of the deposited data

How the results depend on the processing

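At 4-fold 0 of the 9 genes were called in M2 against M0 (10 of all 11762 tested genes were), 0 in RM2 against RM0 (34 of 11748), 2 in M1 against M0 (653 of 11778), 2 in RM1 against RM0 (340 of 11713) and 0 in RM1 against M1 (84 of 11443). In RM2 against RM0 3 of the 9 genes were called with scaling by totals or a prior count of 0.25, with Mrc1 (1.03 and 1.20) added to Egr2 and Clec10a. Over all genes the calls in that comparison, in either direction, rose from 307 to 334 and 367 with these settings. In RM1 against M1 scaling by totals lost the call of Mrc1 (-0.92) and gained that of Egr2 (1.01). Over all genes, in either direction, 169 were called in M2 against M0, 82 with a minimum of 20 counts and 427 with none, and in RM2 against RM0 307, 187 and 598. In RM2 against M2 they were 232, 129 and 510, in RM0 against M0 180, 99 and 434, and in RM1 against M1 611, 451 and 1229. The shared IL-4 effect passed in 22 genes, and in 3 with scaling by totals, 45 with no filter, 0 without the irradiation term, 1322 without M1 and RM1 and 42 with DESeq2. Of the 9 genes 3 passed without M1 and RM1. The shared irradiation effect passed in 55 genes, and in 3 with scaling by totals, 134 with no filter, 0 without the polarization term, 174 without M0 and RM0, 522 without M1 and RM1 and 115 with DESeq2. The cause of these shifts was not tested. Among the shared effects, a change of sign was seen for Irf4 with LPS and IFN-γ (-0.020 with scaling by totals), Il4ra with irradiation (-0.074 without M0 and RM0) and Ccl22 with irradiation (-0.015 without M2 and RM2). Among differences between 2 libraries, none of them called, the sign changed with scaling by totals for Irf4 in M2 against M0 (-0.031 to 0.027) and in M1 against M0 (0.088 to -0.33), Il4ra in RM1 against M1 (-0.053 to 0.089) and Klf4 in RM2 against M2 (0.028 to -0.025), and with DESeq2 size factors for Klf4 in RM2 against RM0 (0.0030 to -0.014). Scaling by totals moved the median of all genes to -0.47 in M1 against M0, -0.26 in RM1 against RM0 and 0.13 in RM1 against M1, and in that scaling Klf4 fell with LPS and IFN-γ (-0.54, edgeR adjusted p = 0.0141). Of 147 recomputed log2 fold changes of the 9 genes, 141 stayed within their counting interval and 6 did not, without a change of sign of a called value. No paired analysis was possible because each condition had 1 library, so that there was no replicate number to block on. The irradiation and polarization terms of the fit match libraries by condition, not by replicate.

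Depth limits Mrc1, Ccl17 and Pparg most, and no well-to-well spread was measured for any gene.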
